A study of Mus musculus with 17 samples.

Results

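The markers of 2 states of fibroblasts, 10 genes in all, were followed in the heart 5 days after myocardial infarction (MI). They were taken by name, with 5 markers of the activated state (Fap, Cthrc1, Meox1, Ddah1 and Cilp) and 5 of the resting state (Gsn, Dpt, Pi16, Tcf21 and Cd248). The list was chosen with earlier results of these data known. Shares of all genes printed beside its counts are therefore a description and not a test. Each marker matched 1 of the 31647 features in the count table, and all 10 were among the 12301 genes with enough counts to test. The libraries came from 17 male wild-type C57BL/6J mice aged 8 to 11 weeks. In 9 mice the left anterior descending coronary artery was permanently ligated and RNA was taken from the dissected infarct zone (IZ). The other 8 were sham operated, without ligation, and RNA was taken from left ventricular tissue. Libraries were made from the 3' ends of transcripts with primers that carry molecular identifiers, so that counts depend little on transcript length. Whether reads with the same identifier were counted once is not stated in the methods of the study. Levels are given in CPM, the count divided by the library size in units of 1e6, after scaling by the trimmed mean of M values (TMM).

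Fibroblasts of the healthy heart lie between the cardiomyocytes and around vessels, where they maintain the collagen network. After an infarct they proliferate and pass through an activated stage, in which matrix genes are induced, towards contractile myofibroblasts and later the quieter cells of the scar. Markers of the 2 states come mostly from studies of single cells, and several of them are also made by other cells: gelsolin (Gsn) by cardiomyocytes and macrophages, endosialin (Cd248) by pericytes, and dimethylarginine dimethylaminohydrolase 1 (Ddah1) by many tissues.

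The libraries held 1237675 to 4738307 counts. Mitochondrially encoded transcripts took 22.9 to 32.4% of the counts in sham and 4.22 to 6.78% in 8 of the IZ libraries. IZ replicate 1 stood apart with 19.5%. It also had the most cardiomyocyte transcript in the IZ, since 7 cardiomyocyte markers (Myh6, Ttn, Tnnt2, Tnni3, Actn2, Ryr2 and Atp2a2) summed to 15300 CPM there, to 1470 to 3350 CPM in the other IZ libraries and to 38700 to 48000 CPM in sham. In tissue of this kind, more cells of a type and more RNA per cell cannot be told apart. Leaving out IZ replicate 1 changed no call of a marker.

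All 5 activated markers rose in the IZ, by 3.93-fold (Meox1) to 22.8-fold (Cthrc1). The resting markers did not move as a group. Gsn fell 5.35-fold, Pi16 did not pass the test, and Dpt, Tcf21 and Cd248 rose 2.49-fold, 2.97-fold and 4.08-fold, so that 3 of the 5 genes taken as resting markers had higher levels in the injured tissue and 1 had a lower level. In the edgeR quasi-likelihood test over all 12301 genes, with Benjamini-Hochberg adjustment at 0.05, 36.3% of genes were called higher and 33.1% lower in the IZ, which makes 69.5% called in either direction. Against that background 9 of the 10 markers were called. For 8 of them every IZ library lay above every sham library, which held for 16.6% of all genes, and for Gsn every IZ library lay below, which held for 16.5%. The 2 groups did not overlap in either direction for 33.1% of genes. The median log2 fold change was 2.34 over the activated and 1.31, that of Dpt, over the resting markers, beside 0.05 over all genes tested.

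**Figure D1:**
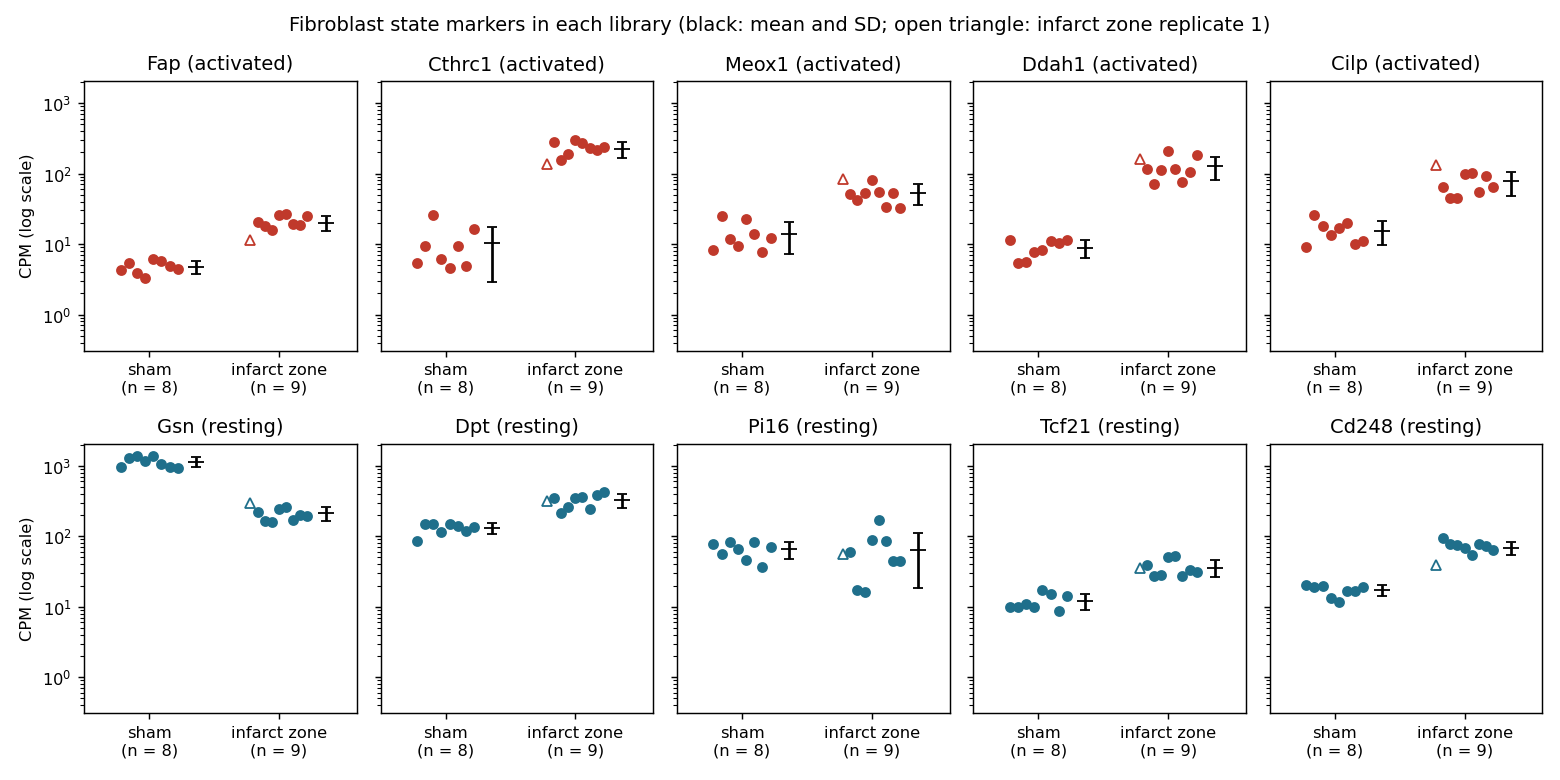
Level of each marker in each of the 17 libraries, in CPM on a log axis, with activated markers in the top row and resting markers in the bottom row; the black bar is the group mean with its SD, and the open triangle is IZ replicate 1. All 5 activated markers and Dpt, Tcf21 and Cd248 sit above their sham values in every IZ library, Gsn sits below, and Pi16 overlaps.

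The activated markers were all scarce in sham hearts, as were the resting markers Tcf21 and Cd248. Cthrc1, which encodes a secreted glycoprotein of matrix-forming fibroblasts (ENSMUSG00000054196, chromosome 15, 39076932 to 39087121 in mm10, plus strand), had the lowest level of 4.62, a median of 7.74 and a highest level of 25.9 CPM in sham. In the IZ the same 3 values were 136, 227 and 302 CPM. The lowest IZ library was thus more than 5 times the highest sham library, although Cthrc1 was also the marker with the widest spread in sham, with a coefficient of variation (SD over mean) of 72.1% there and 25.3% in the IZ. Its log2 fold change was 4.51 ± 0.29 (SE) (adjusted p = 7.37e-12, edgeR).

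Ddah1 (ENSMUSG00000028194, chromosome 3, 145758675 to 145894277, plus strand) encodes an enzyme that breaks down asymmetric dimethylarginine, an inhibitor of nitric oxide synthases. It ran from 5.38 through a median of 9.25 to 11.6 CPM in sham and from 70.5 through 115 to 209 CPM in the IZ. The groups were far apart, and the highest IZ values were those of replicates 5 and 9. The log2 fold change was 3.81 ± 0.24 (SE; adjusted p = 4.95e-12, edgeR). A pseudogene of a ribosomal protein, Rpl36a-ps2, lies within Ddah1 on the same strand and has its own row with 13582 counts against 3989 for Ddah1 over the 17 libraries, so a share of reads assigned to the wrong feature was not tested.

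Fap, Meox1 and Cilp rose by about the same factor. Fap (ENSMUSG00000000392, chromosome 2, 62500943 to 62574075, minus strand), a serine protease of the cell surface that is used to image activated fibroblasts, was the least abundant marker in both groups. It ran from 3.31 through 4.68 to 6.16 CPM in sham (5 to 13 counts a library) and from 11.5 through 19.3 to 26.6 CPM in the IZ. Even the lowest IZ library, replicate 1, was above all sham libraries, and the log2 fold change was 2.05 ± 0.20 (SE; adjusted p = 3.32e-09, edgeR). Meox1 (ENSMUSG00000001493, chromosome 11, 101877510 to 101894374, minus strand), a homeobox transcription factor, ran from 7.63 through 11.9 to 24.9 CPM in sham and from 32.5 through 52.2 to 83.3 CPM in the IZ. The groups did not overlap, but the gap between them was narrow, and the log2 fold change was 1.97 ± 0.24 (SE; adjusted p = 1.70e-07, edgeR). Cilp (ENSMUSG00000042254, chromosome 9, 65265180 to 65280605, plus strand), a secreted matrix protein first described in cartilage, ran from 9.22 through 15.1 to 25.6 CPM in sham and from 44.9 through 65.5 to 130 CPM in the IZ. Its log2 fold change was 2.34 ± 0.24 (SE; adjusted p = 1.17e-08, edgeR), and IZ replicate 1 was the highest library.

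Among the resting markers, Gsn dominated the sham heart and lost that place in the IZ. Gsn (ENSMUSG00000026879, chromosome 2, 35256380 to 35307892, plus strand) encodes gelsolin, which severs and caps actin filaments and exists in a cytoplasmic and a secreted form. Its level ran from 939 through 1108 to 1375 CPM in sham and from 160 through 201 to 296 CPM in the IZ, with no overlap. The log2 fold change was -2.42 ± 0.16 (SE; adjusted p = 8.97e-12, edgeR). The 7 cardiomyocyte markers were all called lower as well, with a median log2 fold change of -3.01, and IZ replicate 1 had both the most cardiomyocyte transcript and the most Gsn of the IZ. Gsn averaged 1139 ± 186 CPM (SD) over the 8 sham libraries and 213 ± 47.7 CPM (SD) over the 9 IZ libraries, or 202 ± 38.6 CPM (SD) without replicate 1. The part of cardiomyocytes in the fall of Gsn was not tested. The 5 markers of macrophages (Adgre1, Cd68, Csf1r, Lyz2 and Cd14), which also make gelsolin, were all called higher. They summed to 272 to 413 CPM in sham, 1560 CPM in IZ replicate 1 and 2800 to 4450 CPM in the other IZ libraries.

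Dpt, Tcf21 and Cd248 moved the other way. Dpt (ENSMUSG00000026574, chromosome 1, 164796644 to 164824266, plus strand) encodes dermatopontin, a small matrix protein that binds decorin and collagen fibrils. It ran from 85.7 through 136 to 151 CPM in sham and from 217 through 344 to 428 CPM in the IZ, which made it the most abundant of the 10 markers there. Its log2 fold change was 1.31 ± 0.15 (SE; adjusted p = 5.48e-08, edgeR). Tcf21 (ENSMUSG00000045680, chromosome 10, 22817281 to 22820174, minus strand), a basic helix-loop-helix transcription factor needed to form cardiac fibroblasts from the epicardium, ran from 8.78 through 10.5 to 17.4 CPM in sham and from 26.9 through 33.3 to 52.2 CPM in the IZ. The log2 fold change of 1.57 ± 0.18 (SE; adjusted p = 6.37e-08, edgeR) was carried by 9 of 9 IZ libraries above every sham library. Cd248 (ENSMUSG00000056481, chromosome 19, 5068078 to 5070682, plus strand), a transmembrane glycoprotein, ran from 11.8 through 17.8 to 20.1 CPM in sham and from 39.5 through 72.6 to 93.6 CPM in the IZ. Its log2 fold change of 2.03 ± 0.16 (SE; adjusted p = 1.26e-10, edgeR) was within the range of the rises of Fap and Meox1. Of 6 pericyte markers, Rgs5, Kcnj8 and Abcc9 were called lower, Pdgfrb was called higher and Cspg4 and Notch3 did not pass the test. The sum of the 6 was 488 to 714 CPM in sham, 489 CPM in IZ replicate 1 and 240 to 369 CPM in the other IZ libraries. The part of pericytes in the rise of Cd248 was not tested. Antisense genes overlap Meox1 (Gm11551, 6 counts over the 17 libraries), Tcf21 (Gm10824, 30 counts), Dpt (Gm32569, with no row in the table) and Pi16 (AC162182.1, also with no row). The strand setting of the counting is not given in the sources used here. Some merged features have names that may mark antisense reads as counted apart, but for these 4 markers reads of the 2 strands cannot be told apart from the table.

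Pi16 was the marker with no call. It encodes peptidase inhibitor 16, a secreted or membrane-anchored protein that marks fibroblasts of the adventitia (ENSMUSG00000024011, chromosome 17, 29317680 to 29330593, plus strand). In sham it ran from 36.6 through 68.4 to 83.7 CPM. In the IZ it ran from 16.3 in replicate 4 and 17.5 in replicate 3 through a median of 56.4 to 88.6 in replicate 5 and 167 in replicate 6, so 3 IZ libraries were above and 2 below every sham library. Pi16 averaged 65.1 ± 17.3 CPM (SD) over the 8 sham libraries and 64.3 ± 46.1 CPM (SD) over the 9 IZ libraries, and the coefficient of variation was 26.6% in sham and 71.6% in the IZ, the largest of the 10 markers there. The log2 fold change was -0.03 ± 0.34 (SE; adjusted p = 0.948, edgeR), with a 95% interval from -0.72 to 0.67, that is, from 0.607 to 1.59 times the sham level. The 4 markers of epicardial and mesothelial cells (Wt1, Msln, Upk3b and Upk1b) summed to 64.8 CPM in IZ replicate 6 and to 113 CPM in replicate 2, where Pi16 was at 59 CPM, and to 7.18 to 26.1 CPM in the other IZ libraries. Their part in the level of Pi16 was not tested.

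**Figure D2:**
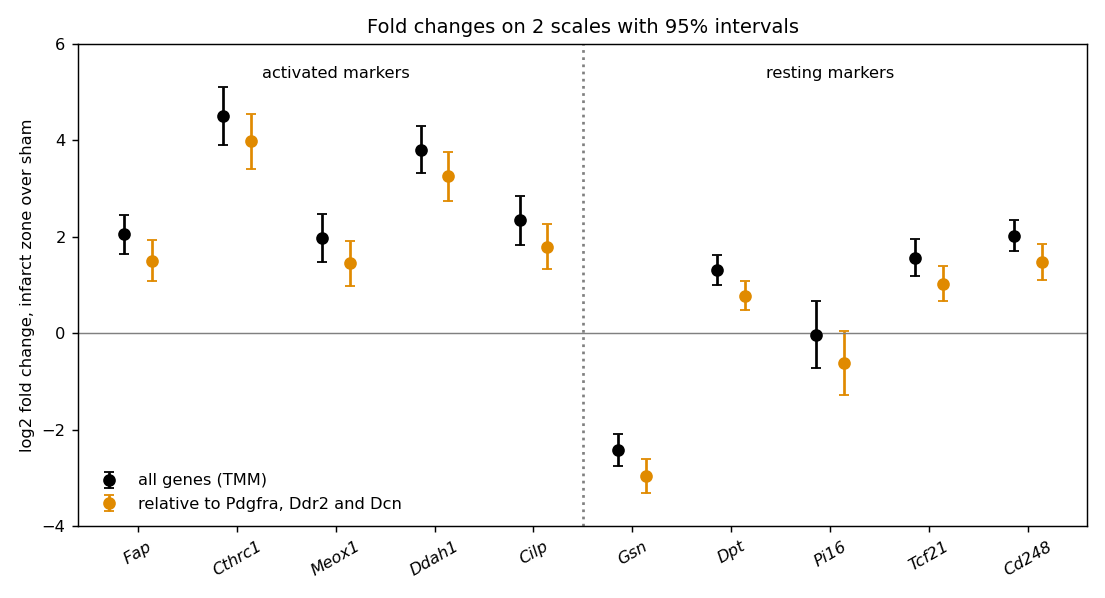
Log2 fold change of each marker between the IZ (n = 9) and sham (n = 8) with its 95% interval, on the scale of all genes (black) and relative to Pdgfra, Ddr2 and Dcn (orange). The 5 activated markers lie above 0 on both scales, whereas the resting markers spread from Gsn at -2.42 to Cd248 at 2.03 on the scale of all genes.

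The order of the markers changed between the groups. In sham the medians descended from Gsn at 1108 CPM to Dpt, Pi16, Cd248, Cilp, Meox1, Tcf21, Ddah1, Cthrc1 and Fap at 4.68 CPM. The ranges of Gsn, Dpt and Pi16 were separate from each other and from all others, while those of the neighbours from Cd248 down to Fap overlapped. In the IZ Dpt came first at 344 CPM, followed by Cthrc1, Gsn, Ddah1, Cd248, Cilp, Pi16, Meox1, Tcf21 and Fap. There the ranges of neighbours overlapped for 8 of 9 steps, the exception being the step from Tcf21 to Fap. The 5 activated markers together made up 2.83 to 4.51% of the summed CPM of all 10 in sham and 38.8 to 47.4% in the IZ. Gsn alone was 79.8 to 85.8% of the resting sum in sham and 25.6 to 39.7% in the IZ. Without Gsn, the resting sum was 182 to 261 CPM in sham and 338 to 638 CPM in the IZ.

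A second scale was used to ask how the markers moved relative to 3 general fibroblast genes. Each library was scaled to the geometric mean of the counts of Pdgfra, a growth factor receptor of cardiac fibroblasts, Ddr2, a collagen receptor, and Dcn, the proteoglycan decorin. The 3 genes did not move alike, with log2 fold changes of 0.94 (Pdgfra), 0.70 (Ddr2) and 0.04 (Dcn) on the scale of all genes. On the second scale itself Pdgfra was called higher (0.39) and Dcn lower (-0.50), while Ddr2 (0.14) was not called. On the scale of all genes their geometric mean came to 76.7 ± 9.11 CPM (SD) over the sham libraries and 112 ± 8.88 CPM (SD) over the IZ libraries. Relative to it, 52.5% of all genes were called lower and 19.3% higher in the IZ (71.8% in either direction), with a median log2 fold change of -0.50. The calls of the markers stayed as they were, with 5 activated and 3 resting markers higher and Gsn lower. Every IZ library lay above every sham library for 6 of the 10 markers, beside 8.04% of all genes, and below for Gsn, beside 27% (35% in either direction). Cthrc1 went from 5.07 to 31.0 counts per 100 reference counts in sham to 118.7 to 300.5 in the IZ, a log2 fold change of 3.98 ± 0.28 (SE; adjusted p = 3.65e-12, edgeR). Tcf21 went from 11.9 to 21.7 to a range of 23.3 to 50.2, by 1.03 ± 0.18 (SE; adjusted p = 1.14e-05, edgeR). Dpt had the smallest call, 0.78 ± 0.15 (SE; adjusted p = 3.74e-05, edgeR), with 8 of 9 IZ libraries above every sham library. Gsn fell from 1136 to 1656 counts per 100 reference counts in sham to 140 to 258 in the IZ, by 2.97 ± 0.17 (SE) on the log2 scale (adjusted p = 4.56e-13, edgeR). Pi16 had a log2 fold change of -0.61 ± 0.32 (SE; adjusted p = 0.0937, edgeR), with 5 of 9 IZ libraries below every sham library. It was called lower, at -0.88, without IZ replicate 6 (adjusted p = 0.0117, edgeR), and at -0.96 relative to Pdgfra alone (adjusted p = 0.00909, edgeR).

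Other references move every gene by nearly the same amount, so that the sign of a marker then says only whether it rose more or less than the reference. Collagen genes rose far more than Pdgfra, Ddr2 or Dcn, with Col1a2 at 302 ± 87.3 CPM (SD) over the 8 sham libraries and 4183 ± 1013 CPM (SD) over the 9 IZ libraries. Relative to Col1a2, 96.5% of all genes were called lower and 0.374% higher, with a median log2 fold change of -3.73. Cthrc1 was the marker called higher there (0.78), which means that it rose more than Col1a2. Ddah1 (0.06) was not called, and the other 8 markers were called lower, as were nearly all genes. Relative to the geometric mean of 12 general fibroblast genes, which include 3 collagen genes, 87.7% of all genes were called lower and 4.8% higher, with a median of -1.98. Cthrc1 (2.50) and Ddah1 (1.75) were called higher on that scale and Gsn (-4.46), Pi16 (-2.12), Dpt (-0.72) and Tcf21 (-0.47) lower, while Fap (0.02), Meox1 (-0.04), Cilp (0.30) and Cd248 (-0.01) were not called. Relative to Pdgfra alone, where 65.5% of all genes were called lower and 12.7% higher, all 5 activated markers and Dpt, Tcf21 and Cd248 were called higher, and Gsn and Pi16 lower. Pi16 at -2.12 on the scale of the 12 genes and at -0.96 on that of Pdgfra was close to the medians of all genes on those scales, -1.98 and -0.88.

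**Figure D3:**
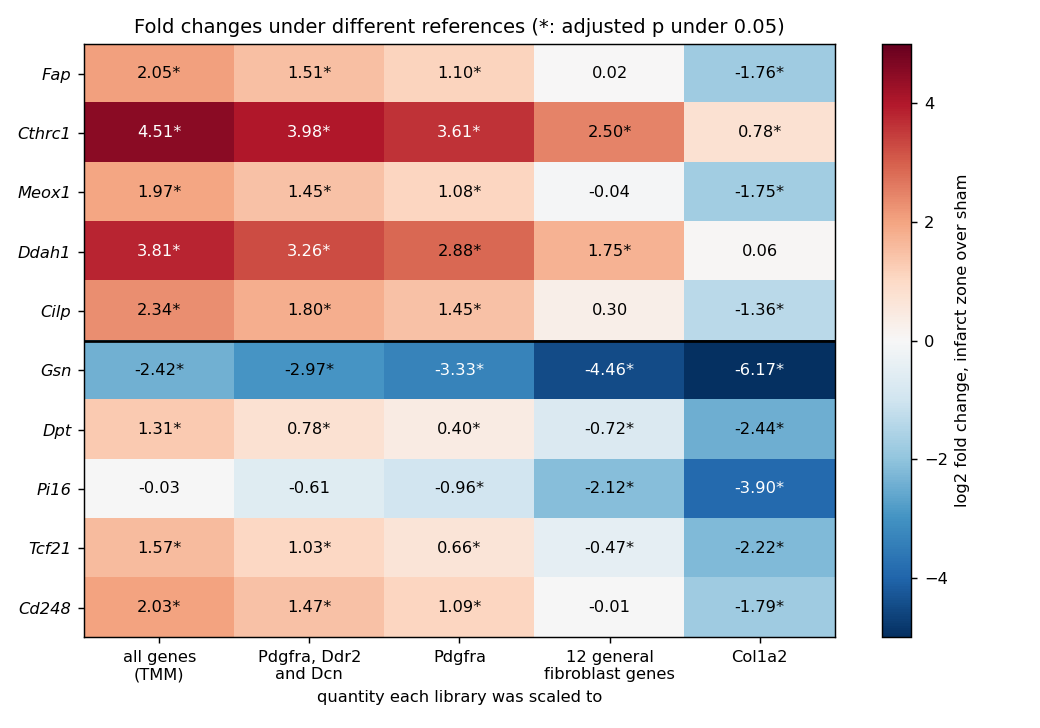
Log2 fold change of each marker (rows) between the IZ (n = 9) and sham (n = 8) when libraries are scaled to all genes or to 1 of 4 sets of fibroblast genes (columns); red is higher and blue lower in the IZ, and a star marks an adjusted p under 0.05 in edgeR. From left to right the values of every marker fall by nearly the same amount, as do those of all genes, whose median is 0.05 on the left and -3.73 on the right.

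The markers also varied within the groups, and not along the line between activated and resting. Deviations of log2 CPM from the group mean were compared over the 17 libraries as a description, since all values of 1 library share its scaling and its tissue sample. Of the 45 pairs of markers 13 had a Pearson r above 0.5, 6 of the 20 pairs within a state and 7 of the 25 pairs between states. Cilp, an activated marker, varied most closely with Gsn, a resting marker (r = 0.86, Spearman's rho = 0.84, n = 17), although their group means moved in opposite directions. Within the IZ alone that r was 0.93 (n = 9), it was 0.90 without replicate 1 and 0.86 without the 2 libraries farthest from the median of Cilp, and in sham it was 0.76 (n = 8). Meox1, Cilp, Gsn, Dpt and Tcf21 had positive r in all 10 of their pairs, 0.44 to 0.86. Cd248 had a negative r with 7 of the other 9 markers, lowest with Gsn at -0.58, but within the IZ that value went from -0.68 to 0.01 without the 2 libraries farthest from the median of Gsn. IZ replicate 1 had the highest level of Cilp, Gsn and Meox1 and the lowest of Fap, Cthrc1 and Cd248 among the 9 IZ libraries.

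**Figure D4:**
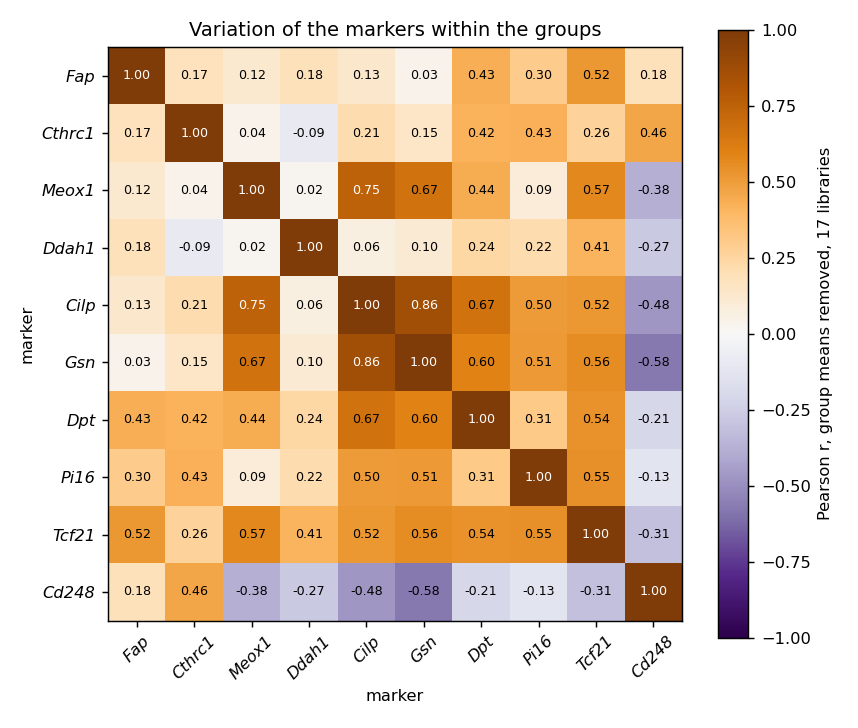
Pearson r between the markers over the 17 libraries after the group means of log2 CPM were removed; rows and columns are the 10 markers, orange is positive and purple negative. Cilp and Gsn have the highest r of any 2 markers (0.86), and Cd248 is negative with most of the others.

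The genes whose variation was most like that of each marker, among the 9288 genes that averaged 10 CPM or more, were mostly matrix genes for some markers and not for others. Cthrc1 was nearest to Fn1, fibronectin (r = 0.87, rho = 0.89), and to Irf5 (r = 0.84, rho = 0.73). Gsn was nearest to Dcn (r = 0.90, rho = 0.92) and then to Cilp, and Cilp to Abi3bp, a matrix protein gene (r = 0.90, rho = 0.94), and then to Gsn. Tcf21 was nearest to Fbln5 (r = 0.83, rho = 0.86) and Lhfp (r = 0.79, rho = 0.76), and Cd248 to Ndfip1 and Fbln2 (both r = 0.85, rho = 0.67 and 0.87), the fibulins being matrix glycoproteins. Dpt was nearest to Pamr1 and the protease gene Mmp2 (r = 0.82 and 0.80, rho = 0.64 for both). Pi16 was nearest to Il11ra1, the receptor of interleukin 11 (r = 0.92, rho = 0.73), and to Gm48285 (r = 0.85, rho = 0.83). Fap was nearest to the actin-binding Flna (r = 0.79, rho = 0.68) and the collagen gene Col12a1 (r = 0.76, rho = 0.71). The nearest to Meox1 were Zfp36l1 (r = 0.81, rho = 0.80) and Akap12 (r = 0.79, rho = 0.72), and those to Ddah1 were Pigp and Cop1 (both r = 0.80, rho = 0.71 and 0.78). All of these are over 17 libraries and were picked as the highest of 9288 values for each marker. Within the IZ, leaving out replicate 1 took r from 0.92 to 0.88 for Gsn and Dcn, from 0.81 to 0.47 for Fap and Flna and from 0.86 to 0.53 for Cd248 and Fbln2. Leaving out the 2 libraries farthest from the median of the marker took r from 0.79 to 0.42 for Dpt and Pamr1, from 0.78 to 0.50 for Meox1 and Zfp36l1, from 0.80 to 0.52 for Ddah1 and Pigp and from 0.81 to 0.30 for Fap and Flna.

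Promoter sequences are shown for Cilp, Gsn and Dpt, which varied together within the groups while Gsn changed against the other 2 between them. Tcf21 varied with these as well (r = 0.523 with Cilp, 0.555 with Gsn and 0.536 with Dpt), and its window, not printed, held no CAGCTG. The sequences are from RefSeq for GRCm38.p6, whose table holds 6 of the 10 markers (Cilp, Ddah1, Dpt, Gsn, Pi16 and Tcf21) with 8 windows of 300 bases, because Gsn has 3 starts. The 250 bases before the start are printed, for Gsn before its first start, with matches to CAGCTG or TATATAA in capitals.
Cilp, chr9:65264930-65265179, plus strand: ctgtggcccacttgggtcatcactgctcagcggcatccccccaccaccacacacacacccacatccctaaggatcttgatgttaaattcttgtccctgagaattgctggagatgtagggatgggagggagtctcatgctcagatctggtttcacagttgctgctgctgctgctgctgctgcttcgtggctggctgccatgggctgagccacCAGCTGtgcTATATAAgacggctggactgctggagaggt
Gsn, chr2:35256109-35256358, plus strand: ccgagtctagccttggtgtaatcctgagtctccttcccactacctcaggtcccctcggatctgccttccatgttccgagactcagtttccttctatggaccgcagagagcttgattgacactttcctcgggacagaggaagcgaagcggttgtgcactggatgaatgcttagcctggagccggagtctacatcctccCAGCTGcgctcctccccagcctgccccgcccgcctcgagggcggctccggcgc
Dpt, chr1:164796413-164796662, plus strand: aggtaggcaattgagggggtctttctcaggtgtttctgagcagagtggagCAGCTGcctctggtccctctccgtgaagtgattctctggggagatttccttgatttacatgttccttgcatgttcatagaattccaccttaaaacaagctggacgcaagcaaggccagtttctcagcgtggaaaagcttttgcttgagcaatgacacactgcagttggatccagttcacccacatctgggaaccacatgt
CAGCTG is an E-box, the kind of sequence that basic helix-loop-helix factors such as Tcf21 bind, and reads the same on both strands. It was found 39 bases before the start of Cilp, 53 bases before the first start of Gsn and 200 bases before that of Dpt, and also just after the starts of Dpt and Pi16. In all it was in 5 of the 8 windows of the markers and in 16.3% of 32851 windows of all genes. Its part in the levels or the shared variation of the markers was not tested. TATATAA, a form of the TATA box, was in the window of Cilp only among the markers, 30 bases before the start, and in 3.24% of all windows. TATAAA was in the window of Dpt, after the start, and in 13.6% of all. TGANTCA (AP-1, in 7.81% of all windows), CATTCC (TEAD, 14.7%), CAGACA (SMAD, 21.0%) and TAATTA (homeobox, 5.29%), searched on both strands, were in none of the 8. The windows of Ddah1 and Tcf21 held none of the 7 motifs.

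Other genes of fibroblasts give the setting of these 10. Of 12 genes of cardiac fibroblasts in general, 10 were called higher and 0 lower in the IZ, beside 36.3% and 33.1% of all genes. The called genes ran from Col1a1, which averaged 349 CPM in sham and 5588 CPM in the IZ, down to Ddr2 with a log2 fold change of 0.70. Dcn (0.04) and Fbln1 (0.46) did not pass the test. All 10 myofibroblast genes were called higher, beside 36.3% of all genes. They ran from Lox, which crosslinks collagen, at 4.64 down to Acta2, the smooth muscle actin of contractile fibroblasts, at 2.29. The median of that list, 3.81, was above the median of the activated markers. Of 5 genes of matrifibrocytes, the cells of the mature scar, 3 were tested and called higher, beside 36.3% of all genes. They were Sfrp2 at 3.52, Fmod at 2.75 and Comp at 2.48. The other 2, Cilp2 and Chad, had too few counts to be tested. Chad had 0 to 10 counts in the sham libraries and 0 in every IZ library.

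Further genes of resting fibroblasts did not rise with Dpt, Tcf21 and Cd248. Of 6 other genes of resting cardiac fibroblasts, 0 were called higher and 4 lower, beside 36.3% and 33.1% of all genes. Inmt, a methyltransferase, had 10 to 28 counts in sham and 0 in every IZ library. It was at least 10.8-fold lower against a floor of 3 counts a library. Hsd11b1, which regenerates active glucocorticoid, fell by 2.07 on the log2 scale, with means of 22.9 CPM in sham and 5.50 CPM in the IZ. Abca8a (-1.99) and Smoc2 (-0.28) were also called lower, while Scn7a (-0.18) and Lama2 (-0.38) did not pass the test. Relative to Pdgfra, Ddr2 and Dcn all 6 were called lower, beside 52.5% of all genes, whose median on that scale was -0.50. The median of this list was -1.19, also with Inmt set to its bound. Of 12 genes of the Pi16-positive adventitial fibroblasts, 11 were tested, and 3 were called higher and 5 lower, beside 36.3% and 33.1% of all genes. They reached from the collagen gene Col14a1 at 3.14 to Scara5, a ferritin receptor, at -3.00. Their median was 0.01, beside 0.05 over all genes tested.

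**Figure D5:**
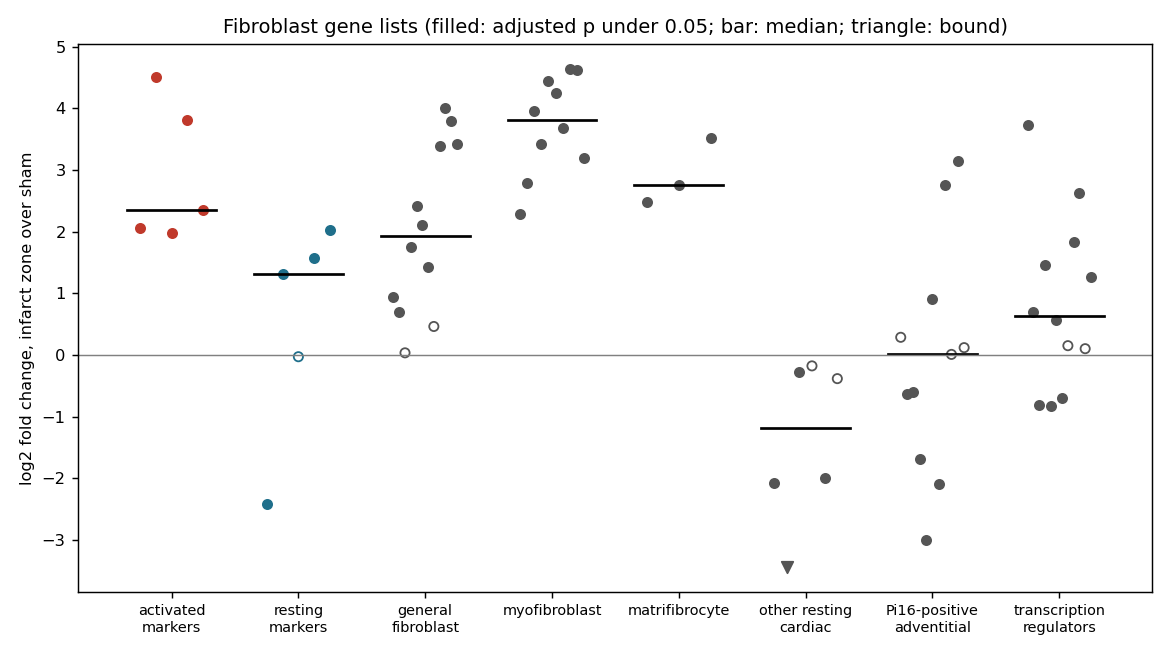
Log2 fold change between the IZ (n = 9) and sham (n = 8) for the activated and resting markers and for 6 other lists of fibroblast genes; each point is a gene, filled where the adjusted p in edgeR was under 0.05, the bar is the median of the list, and the triangle is Inmt at its bound. The medians are 2.34 for the activated markers and 3.81 for the myofibroblast genes, and 3 of the 5 resting markers lie above 0 with a call.

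Transcription regulators of fibroblasts went both ways. Of 12 tested, 7 were called higher and 3 lower, beside 36.3% and 33.1% of all genes. The largest rise was that of Runx1, 3.73 ± 0.24 (SE) on the log2 scale, with means of 4.03 CPM in sham and 52.0 CPM in the IZ. The other genes called higher were Sox9 (2.63), Twist1 (1.84), Mrtfa (1.46), Osr1 (1.26), Scx (0.70) and Smad3 (0.56). Tead1, which acts with the Hippo pathway, had the lowest value, -0.82 ± 0.11 (SE), close to that of Srf, -0.81 ± 0.15 (SE). Yap1 was the other gene called lower (-0.70). Tbx20 (0.10) and Prrx1 (0.15) did not pass the test. Relative to Pdgfra, Ddr2 and Dcn, 4 of the 12 were called higher and 5 lower, beside 19.3% and 52.5% of all genes. The 5 called lower were Tead1 (-1.37), Srf (-1.36), Yap1 (-1.25), Tbx20 (-0.45) and Prrx1 (-0.40). Tead1, Srf and Yap1 are also expressed in cardiomyocytes, whose markers fell, and the part of those cells in the 3 falls was not tested.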

How the data were processed

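RNA was taken from 8 sham left ventricles and 9 infarct zones, and 3' end libraries were sequenced. The authors trimmed the reads with Cutadapt, mapped them to mm10 and counted them per gene with HTSeq. The submitters' processing notes also name Bowtie2. The deposited values are raw counts, 1 column per mouse, and all 17 columns were used. The annotation release, the strand setting and the treatment of reads with several locations are not given in the sources used here. Gene names and positions came from GENCODE M21 (GRCm38), which named 31521 of 31612 single identifiers, and 35 merged features, none with a marker, were kept for library sizes.

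The test was that of edgeR 4.0.16 (R 4.3.3). After filterByExpr (minimum 10 counts) and TMM scaling (factors 0.616 to 1.53), a two-sided quasi-likelihood F-test without covariates was run on 12301 genes, with Benjamini-Hochberg adjustment over all of them (threshold 0.05). SE values were derived from the F statistic, and 95% intervals from the t distribution. The second scale replaced library sizes by the geometric mean of Pdgfra, Ddr2 and Dcn. Values of log2 CPM used a prior count of 1. The procedure was tested on simulated data. The study had used the Wald test of DESeq2, which was run here (1.42.0) as an alternative, with other scalings, filters, references, a block for the replicate number, and each library left out in turn. The floor of a gene at 0 was 3 counts a library and covers counting error only. No 2 libraries of a group were copies, since the 64 pairs differed by 2.41 to 83.8 times the sampling variance. The markers and lists were chosen with earlier results of these data known. Named were all markers, every gene of lists with at most 6 tested genes, the highest and lowest called gene of longer lists and the 2 genes nearest to each marker. Regulators other than Runx1 and Tead1 and relatives other than Capg and Tcf15 were named after seeing the data. So were Fbln1, the reference genes and the motifs. Figures were made with Matplotlib 3.10.9 in Python 3.11.15.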

Additional observations from a re-analysis of the deposited data

Results flagged for a closer look

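Pi16 in infarct zone replicate 6 stood far above the other libraries of its group, at 167.3 CPM against 16.3 to 88.6 CPM in the other 8. The gap to the nearest library was 0.521 of the range of the group, above the 95% limit of Dixon's test for 9 samples, 0.493. Among 40 sets of values (10 markers, 2 groups and 2 scales) it was the only one past that limit, and chance takes about 1 set in 20 past it.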

How the results depend on the processing

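Over 25 alternatives on the scale of all genes, the 9 calls of markers kept their direction, and each was called wherever the gene was tested; a minimum mean of 50 counts left Fap untested and 8 calls. Scaling by total counts alone shifted the median of all genes from 0.05 to 1.13, gave 9176 genes called higher, and turned Pi16 to a called rise of 1.04. Under it the other rises of markers were 2.38 (Dpt) to 5.59 (Cthrc1), and Gsn was at -1.37, while genes other than the 10 markers were not followed singly. The minimum mean of 50 counts also left 5239 calls over all genes, of which 2747 were higher, since fewer genes were tested. Leaving out each library in turn gave 7962 to 8614 calls over all genes and 9 marker calls each time. On the scale of Pdgfra, Ddr2 and Dcn, omissions left 9 to 10 marker calls, with 1 to 2 resting markers lower, the second being Pi16 without infarct zone replicate 6. With all libraries, 52.5% of all genes were called lower on that scale.

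Other references shift all genes alike, with medians of -0.88 (Pdgfra), -1.98 (12 general fibroblast genes) and -3.73 (Col1a2), and the signs below follow from that shift. With Pdgfra alone as reference, 2 resting markers were called lower, beside 65.5% of all genes lower. With Col1a2 alone, 1 activated marker was called higher, 0 resting markers higher and 5 lower, beside 96.5% of all genes lower, with negative values for Fap (-1.76), Meox1 (-1.75), Cilp (-1.36), Dpt (-2.44), Tcf21 (-2.22) and Cd248 (-1.79). With the 12 general fibroblast genes, 2 activated markers were higher, 0 resting markers higher and 4 lower, beside 87.7% of all genes lower, with negative values for Meox1 (-0.044), Dpt (-0.72), Tcf21 (-0.47) and Cd248 (-0.0066).

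No pairing of mice of the 2 groups by replicate number was seen, and none is named in the sources used here. Deviations of equally numbered libraries had correlations of -0.22 to 0.13, and 1 of 8 was over 0.1. With the replicate number as a block, infarct zone replicate 9 was dropped, 7884 genes were called (4086 higher), and 9 markers were called on the scale of all genes. On the scale of the reference genes the block gave 10 marker calls with 2 resting markers lower, as Pi16 was called at -0.79 (adjusted p = 0.0385, edgeR). Without the block, 52.5% of all genes were called lower on that scale. Depth limits Fap most, which had 5 to 13 counts in the sham libraries.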

Other observations

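Family relatives of the markers did not follow them as a group. Of 15 relatives, 11 were tested, and 5 were called higher and 5 lower in the infarct zone by edgeR's quasi-likelihood test over all genes, beside 36.3% and 33.1% of all genes. The gelsolin relative Capg, an actin-capping protein of macrophages, had the largest rise, 3.60 on the log2 scale, with 16.3 ± 5.67 CPM (SD) over the 8 sham libraries and 198 ± 50.1 CPM (SD) over the 9 of the infarct zone, where Gsn was at -2.42. Tcf15, a basic helix-loop-helix relative of Tcf21 that is found in capillary endothelium of the heart, fell most, by 3.26 on the log2 scale, with 28.9 ± 10.1 CPM (SD) over the sham libraries and 3.32 ± 2.34 CPM (SD) over the others, where Tcf21 was at 1.57. Meox2 was called lower (-0.71) where Meox1 was at 1.97, and Ddah2 was called higher (1.19) where Ddah1 was at 3.81. Capg, Tcf15, Meox2 and Ddah2 had the same directions relative to Pdgfra, Ddr2 and Dcn, at 3.04, -3.83, -1.26 and 0.63. Svil, another gelsolin relative, was called lower (-1.81), as Gsn was. Msc, another basic helix-loop-helix relative of Tcf21, was called higher (2.60), as Tcf21 was. Relative to Pdgfra, Ddr2 and Dcn they were at -2.37 and 2.04. The gelsolin relatives Scin and Vil1 had too few counts to be tested. Relatives other than Capg and Tcf15 were named after their values were seen.

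Markers of lymphocytes and of fat cells had too few counts to be tested. The 4 lymphocyte markers (Cd3e, Cd3g, Cd79a and Ms4a1) summed to at most 1.91 CPM in any sham library and 7.17 CPM in any infarct zone library, and 3 adipocyte markers (Adipoq, Plin1 and Cidec) to at most 6.16 CPM in sham and to 41.2 CPM in infarct zone replicate 2, 14 CPM in replicate 7 and at most 8.16 CPM in the others. Of 4 neutrophil markers, 3 were tested and called higher (S100a8 at 3.19, S100a9 at 2.93 and Csf3r at 5.17), and the sum of all 4 ran from 3.14 to 12.2 CPM in sham and from 14 to 208 CPM in the infarct zone, with the lowest infarct zone value in replicate 1. Of 5 endothelial markers, Kdr (-1.70) and Egfl7 (-0.66) were called lower, and Pecam1 (-0.16), Cdh5 (-0.21) and Tie1 (-0.35) did not pass the test. Of 3 smooth muscle markers, Cnn1 (2.58) was called higher and Myh11 (-0.92) and Smtn (-1.41) lower. The macrophage markers were at 3.19 (Adgre1), 4.09 (Cd68), 2.31 (Csf1r), 3.41 (Lyz2) and 2.61 (Cd14). The pericyte markers were at -1.19 (Rgs5), -1.79 (Kcnj8), -2.72 (Abcc9), 0.06 (Cspg4), 0.30 (Notch3) and 0.96 (Pdgfrb). Of the epicardial markers Msln was called higher (2.22), Wt1 (0.03) did not pass the test, and Upk3b and Upk1b had too few counts. The cardiomyocyte markers fell by 2.20 (Tnnt2) to 4.19 (Tnni3) on the log2 scale.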
